A study of Mus musculus with 4 samples.

Results

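The insulin-like growth factor (IGF) genes described here are the ligands Igf1 and Igf2, the receptor Igf1r and the binding proteins Igfbp2, Igfbp3, Igfbp4, Igfbp5 and Igfbp6. They were chosen by name: a probe belonged to the set where the gene name in the scanner file was 1 of these 8 symbols, whatever its signal. This gave 8 genes with 18 probes on 36 spots, of 27594 genes with a value and 41174 probes on the array. All 18 probes were well above background on all 4 arrays, and all 8 genes were among the 20616 genes tested. Male C57BL/6 mice aged 35 days gave the RNA of 4 bones, namely the ilium and the femur (trunk and limb) and the maxilla and the mandible (jaw), with 1 array for each bone. How many animals were pooled for an array is not stated. A p-value here weighs the difference between the bone classes against how far maxilla and mandible, or ilium and femur, lie from each other. It does not measure how animals vary. The wider study grafted granules of the same bones into skull defects and measured neural crest markers in them, and the arrays address how jaw bones differ from trunk and limb bones.

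IGF-I and IGF-II are secreted peptides that act through the type 1 IGF receptor, a tyrosine kinase that signals to growth, survival and matrix synthesis. Most circulating IGF-I is made by the liver under growth hormone, whereas bone cells make both ligands locally and store them in the mineralised matrix. The binding proteins hold the ligands in the circulation and in the matrix, and each can restrain or aid ligand action, depending on the protease and matrix around it. IGFBP5 binds hydroxyapatite and is abundant in bone matrix, IGFBP3 is the main carrier in serum, IGFBP4 is an inhibitor that the protease PAPP-A cleaves, and IGFBP6 prefers IGF-II.

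Depth and sample checks were alike for the 4 arrays in most respects. Of 43379 spots on each array, 72.8% to 75.5% were well above background and 0 were saturated. All 4 arrays lay on 1 slide with 1 scan time, so a bone and its place on the slide cannot be told apart. All 12 osteoblast and osteocyte markers were well above background in every bone, and their summed signal ranged from 361 to 638 times an array's 75th percentile. The jaw samples held other tissue as well: the summed signal of 8 enamel and dentin genes was 96.2 in the maxilla and 263 in the mandible, against 0.383 in the ilium and 0.191 in the femur. In the trunk and limb samples, the 10 erythroid genes summed to 287 and 323, against 34.5 and 52.6 in the maxilla and mandible. In such bulk tissue, fewer cells of a type and less RNA per cell cannot be told apart.

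Levels are given as the log2 signal relative to the array's own 75th percentile, so 0 is that percentile and 1 unit is a 2-fold step, and they can be compared between bones but not between probes. Where a gene had several probes, its brightest probe was used and the others are given beside it. Igf2, Igfbp2 and Igfbp3 were at least 2-fold higher in both jaw bones than in both other bones, and Igfbp2 stood furthest apart. Both jaw bones lay above both other bones by some amount in 6 of the 8 genes, while for Igf1 and Igfbp6 the maxilla lay at or below the trunk and limb bones. For Igf1r and Igfbp4 the nearest bones of the 2 classes were only 0.0135 and 0.133 apart, under the scanner error of 0.204 on a difference. A dimmer probe of each did not place both jaw bones above both others. By limma, with Benjamini-Hochberg adjustment over all 20616 genes and a threshold of 0.05, Igfbp2 alone of the 8 rose in the jaw and 0 fell, and 4 of 8 had an unadjusted p under 0.05. Of all genes tested, 4.51% rose by this test and 7.25% fell, and 34.4% had an unadjusted p under 0.05, 15.7% with a higher and 18.7% with a lower level in the jaw. Separation by at least 2-fold was met upward by 3 of 8 genes against 9.34% of all genes, and downward by 0 of 8 against 9.82%. Jaw bones above both others by any amount held for 6 of 8 genes and for 31.9% of all genes. The median difference, jaw minus trunk and limb, was 0.72 on the log2 scale over the 8 genes and -0.03 over all genes. The count called depended on single arrays: it was 0 without the ilium, 0 without the femur, 7 without the maxilla and 4 without the mandible, and over all genes the calls then numbered 0, 0, 6166 and 8204, against 2423 with all arrays.

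**Figure D1:**
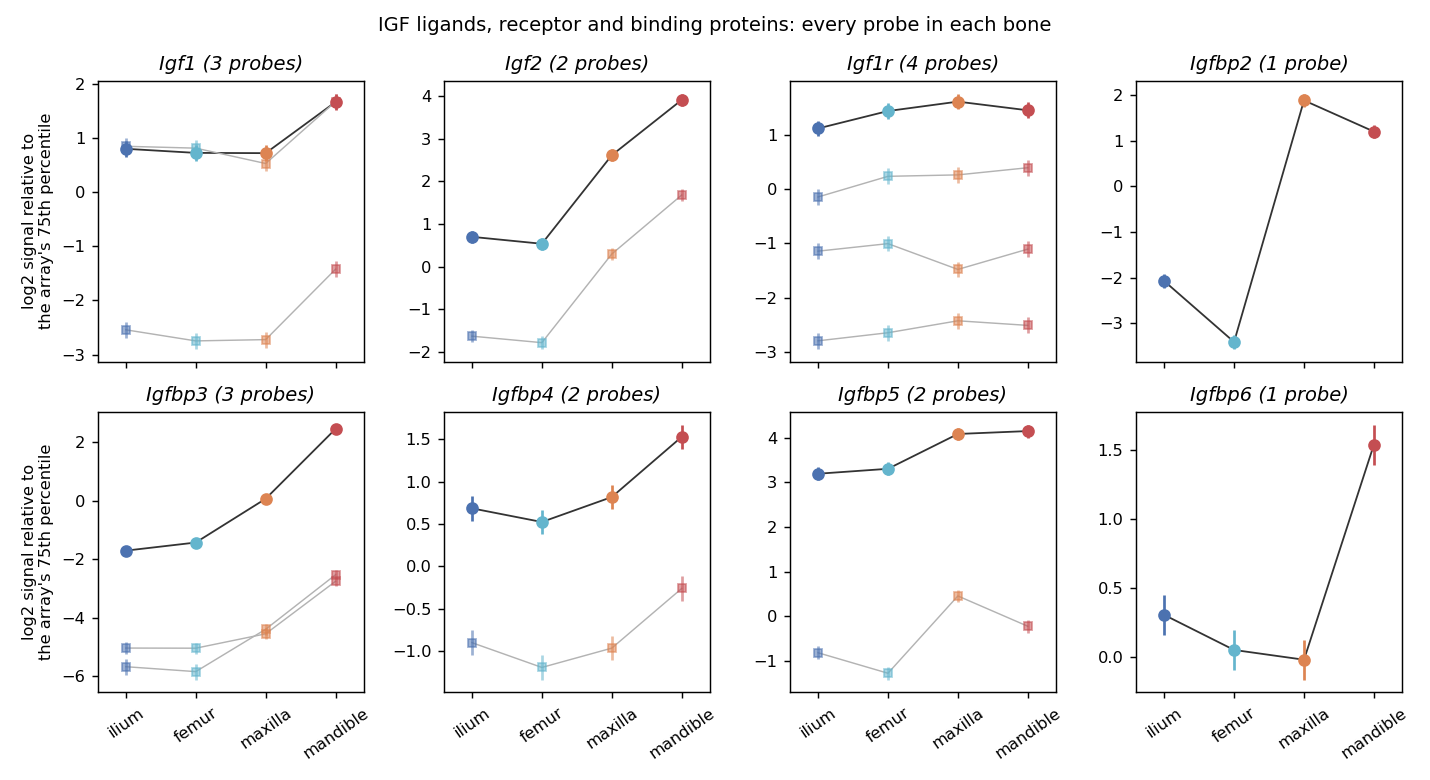
Log2 signal relative to the array's 75th percentile (vertical axis, its own range in each panel) in the ilium, femur, maxilla and mandible (horizontal axis) for every probe of the 8 genes. Round points joined by a dark line are the brightest probe, square points the other probes, and bars are the scanner program's own error of the signal. Igf2, Igfbp2 and Igfbp3 lie higher in both jaw bones, while Igf1, Igfbp4 and Igfbp6 stand out in the mandible alone.

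Igf2 encodes IGF-II, the ligand of fetal growth, and is an imprinted gene read from the paternal copy. RefSeq lists 4 starts for it, and the 100 bases before each are shown because Igf2 was among the genes that stood 2-fold apart; capitals mark the motifs found. The motifs searched, on both strands, were TATAAA, found in many a TATA box, then GGGCGG, the core that Sp1 binds, and CCAAT, which the factor NF-Y binds.
Igf2 start 1 (GRCm38.p6, chr7:142657497-142657596, minus strand): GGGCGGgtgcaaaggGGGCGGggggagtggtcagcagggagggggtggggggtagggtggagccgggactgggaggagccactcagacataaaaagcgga
Igf2 start 2 (GRCm38.p6, chr7:142658805-142658904, minus strand): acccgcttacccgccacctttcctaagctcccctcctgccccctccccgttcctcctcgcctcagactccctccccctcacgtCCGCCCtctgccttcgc
Igf2 start 3 (GRCm38.p6, chr7:142661272-142661371, minus strand): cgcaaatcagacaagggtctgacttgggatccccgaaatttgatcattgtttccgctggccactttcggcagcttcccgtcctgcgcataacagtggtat
Igf2 start 4 (GRCm38.p6, chr7:142666817-142666916, minus strand): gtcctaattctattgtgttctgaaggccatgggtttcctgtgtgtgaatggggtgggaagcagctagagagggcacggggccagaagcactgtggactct
The array does not tell which of these starts was used. The first window holds GGGCGG at 2 places, the second holds it once on the opposite strand, and the third and the fourth hold none of the motifs. GGGCGG occurs in 24.7% of all 32851 RefSeq windows of this length, CCAAT in 18.9% and TATAAA in 5.56%.

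The Igf2 probe lay at chr7:142460185-142460245 in mm8, the build of the array design, and its level was 0.70 in the ilium, 0.54 in the femur, against 2.61 in the maxilla and 3.91 in the mandible. The jaw bones were thus high and did not overlap with the others, and the mandible was the highest. Replicate spots of the probe differed little, with an SD of 0.0362 in the maxilla over 8 spots and 0.039 in the mandible over 9 spots. Each value carried a scanner error of 0.144, or 0.204 on a difference, and neighbours in the order of bones are called apart here where they differ by more than 2 such errors. By that rule, mandible, maxilla and the pair of ilium and femur were apart, while the ilium and the femur were not. The mandible was 9.25-fold above the ilium and 10.4-fold above the femur, and the maxilla 3.77-fold and 4.22-fold. The jaw minus trunk and limb difference was 2.64 ± 0.51 (SE, n = 2 bones a class), a 6.25-fold difference that missed the threshold by limma (adjusted p = 0.0564). A second, dimmer probe of Igf2 gave 2.69 ± 0.53, with -1.63, -1.78, 0.30 and 1.68 in the same order of bones. The call was met with normexp background correction (adjusted p = 0.0469) and where only genes well above background on all 4 arrays were tested (adjusted p = 0.0477). With 1 jaw bone left out, the error came from the ilium and the femur alone, so only sizes are given. The difference was 3.29 without the maxilla, 1.99 without the mandible, 2.72 without the ilium and 2.56 without the femur. Over all alternatives it ranged from 1.99 to 3.29. Under the 10 other settings that kept all 4 arrays, the limma adjusted p ranged from 0.0469 to 0.0798.

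Igf1 encodes IGF-I, the growth-hormone-regulated ligand of postnatal growth. Its brightest probe, at chr10:87360570-87360629, read 0.80 in the ilium, 0.72 in the femur, against 0.72 in the maxilla and 1.67 in the mandible. Only the mandible stood apart, and the other 3 bones lay within the scanner error of each other. The mandible was 1.93-fold above the maxilla and 1.82-fold above the ilium, and 10 spots of the probe had an SD of 0.0304 to 0.0578 within an array. The jaw minus trunk and limb difference was 0.43 ± 0.39 (limma adjusted p = 0.49), and without the mandible it was -0.04. Without the maxilla it was 0.90 and passed (adjusted p = 0.0431, within 0.0431 to 0.865). The other probes, for a second RefSeq transcript and for a cDNA clone, gave 0.27 and 0.57, and all 3 probes were highest in the mandible, by 0.95 to 1.30 over the maxilla. The mandible against maxilla step was therefore under 2-fold by the brightest probe and over it by both others.

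Igf1r, the receptor for both ligands, varied least of the 8 genes. Its level at chr7:68105625-68105684 was 1.11 in the ilium, 1.43 in the femur, against 1.61 in the maxilla and 1.45 in the mandible, a 1.41-fold range over the 4 bones. No neighbours in this order differed by more than 2 scanner errors, though its ends, the maxilla and the ilium, were 0.49 apart. The difference, jaw minus trunk and limb, was 0.25 ± 0.23 (limma adjusted p = 0.485), and it was -0.0002 in the deposited series table. Of its 4 probes, 3 gave a difference of 0.25 to 0.28, and the probe for the cDNA clone gave -0.22.

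Igfbp2, a binding protein of serum and of developing tissue, showed the widest range of the 8 genes. RefSeq lists 2 starts, shown because Igfbp2 was the member that passed the test, with capitals as above.
Igfbp2 start 1 (GRCm38.p6, chr1:72824380-72824479, plus strand): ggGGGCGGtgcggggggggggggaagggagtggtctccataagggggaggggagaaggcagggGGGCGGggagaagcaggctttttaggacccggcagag
Igfbp2 start 2 (GRCm38.p6, chr1:72825287-72825386, plus strand): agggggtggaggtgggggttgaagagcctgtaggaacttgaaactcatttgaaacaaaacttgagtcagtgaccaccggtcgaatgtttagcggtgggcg
The first window holds GGGCGG at 2 places, 98 and 37 bases before the start, and the second holds none of the 3 motifs. The probe, at chr1:72785310-72785369, read -2.08 in the ilium, -3.41 in the femur, against 1.88 in the maxilla and 1.20 in the mandible. Both jaw bones were high, both others low, and each bone differed from its neighbour in this order by more than 2 scanner errors. The maxilla was 15.5-fold above the ilium and 39.1-fold above the femur, and the mandible 9.65-fold and 24.4-fold. Within the classes, the maxilla exceeded the mandible 1.61-fold and the ilium exceeded the femur 2.52-fold. The difference was 4.28 ± 0.58, a 19.4-fold rise in the jaw (limma adjusted p = 0.0363). It rests on 1 probe with 1 spot on each array. Under the 10 other settings with all 4 arrays, its limma adjusted p ranged from 0.0267 to 0.0503, the latter with no filter on background. The call was not met at that setting, nor without the ilium or without the femur. With 1 array left out, the size ran from 3.61 without the femur to 4.95 without the ilium.

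Igfbp3, the chief serum carrier, has 1 RefSeq start, shown because this gene too stood 2-fold apart.
Igfbp3 (GRCm38.p6, chr11:7213924-7214023, minus strand): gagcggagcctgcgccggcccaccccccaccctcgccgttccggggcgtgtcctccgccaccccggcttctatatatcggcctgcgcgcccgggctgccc
None of the 3 motifs is in that window. The brightest probe, at chr11:7106594-7106653, read -1.71 in the ilium, -1.43 in the femur, against 0.07 in the maxilla and 2.45 in the mandible. The jaw bones did not overlap with the others, but they also lay far from each other, with the mandible 5.23-fold above the maxilla. The mandible was 17.9-fold above the ilium, the maxilla 3.42-fold, and the ilium and the femur were not apart. The difference was 2.83 ± 0.90 (7.09-fold), and it did not pass (limma adjusted p = 0.123). The other probes, for a cDNA and a clone, were dimmer and gave 1.39 and 2.29, with the same order of maxilla and mandible above the others. The cDNA probe read -5.03, -5.04, -4.55 and -2.75 in the ilium, femur, maxilla and mandible. By that probe the maxilla was less than 2-fold above the ilium and the femur, so the rule of separation was not met. By the brightest probe, the difference was 4.02 without the maxilla, 1.63 without the mandible, 2.69 without the ilium and 2.97 without the femur. Under the 10 other settings with all 4 arrays, its limma adjusted p ranged from 0.109 to 0.158.

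Igfbp5, the binding protein that associates with bone mineral, read 3.19 in the ilium, 3.30 in the femur, against 4.09 in the maxilla and 4.15 in the mandible by its brightest probe at chr1:72791462-72791521. By this probe the bones fell into 2 pairs, and neither pair held bones that were apart. The difference was 0.87 ± 0.19 (1.83-fold), with the smallest standard error of the 8 genes, and did not pass (limma adjusted p = 0.0694). The difference was 0.90 without the maxilla and 0.84 without the mandible. Under the 10 other settings with all 4 arrays, its limma adjusted p ranged from 0.0532 to 0.214. The second probe gave 1.16 ± 0.35, but with the maxilla at 0.45 above the mandible at -0.23, so the order of the jaw bones differed between the probes. By that probe mandible minus maxilla was -0.68 and femur minus ilium -0.46, both larger than 2 scanner errors, so both pairs came apart. Igfbp5 and Igfbp2 lie on the same stretch of chromosome 1, and the difference was 0.87 for the former and 4.28 for the latter.

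Igfbp4, an inhibitor of IGF action in bone, read 0.69 in the ilium, 0.52 in the femur, against 0.82 in the maxilla and 1.53 in the mandible at chr11:98868110-98868169. The mandible stood apart, and the other 3 bones were not told apart from their neighbours. The difference was 0.57 ± 0.33 (1.48-fold, limma adjusted p = 0.299), and the second probe gave 0.43 ± 0.33 with the same bone on top. By that second probe the maxilla (-0.96) lay below the ilium (-0.90) and above the femur (-1.19). Igfbp6, the binding protein with a preference for IGF-II, read 0.30 in the ilium, 0.05 in the femur, against -0.02 in the maxilla and 1.54 in the mandible at chr15:101977366-101977426. Here the mandible was 2.94-fold above the maxilla, and the maxilla lay below both trunk and limb bones. The difference was 0.58 ± 0.61 (limma adjusted p = 0.541) and turned to -0.20 without the mandible. Without the maxilla, the difference was 0.92 for Igfbp4 and 1.36 for Igfbp6, and without the mandible Igfbp4 gave 0.21. Under the 10 other settings with all 4 arrays, their limma adjusted p was at least 0.267 and 0.518.

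**Figure D2:**
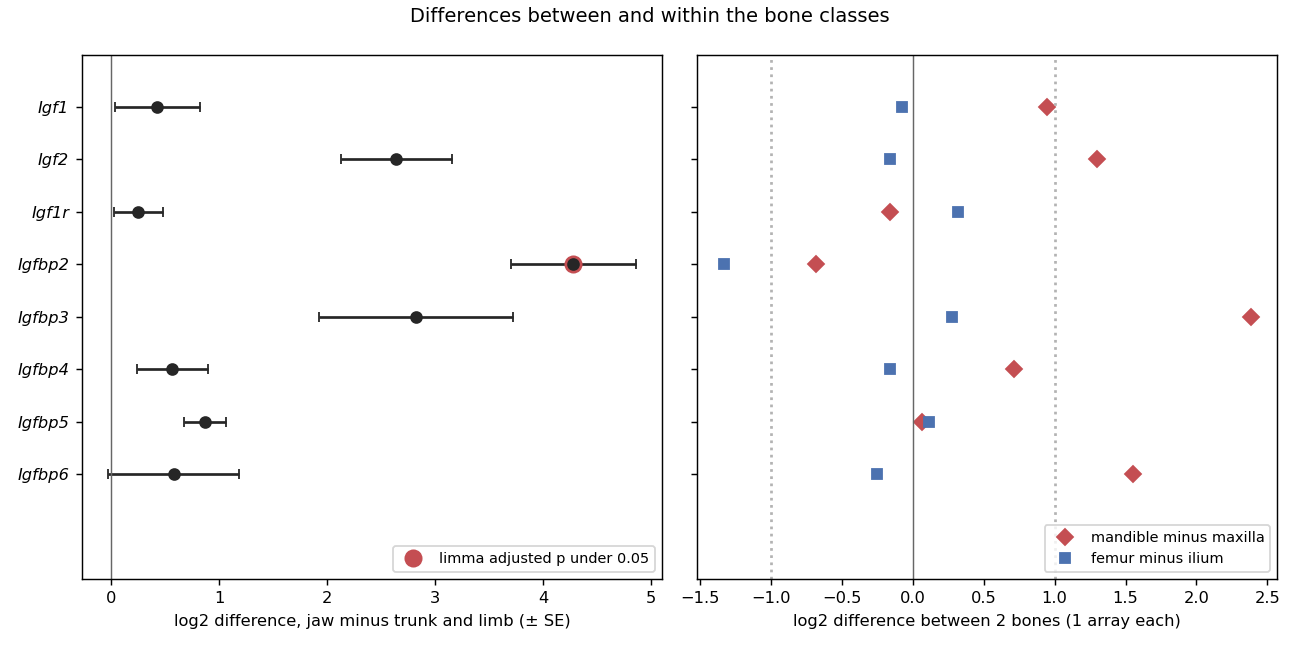
Left, the log2 difference of the mean of maxilla and mandible minus the mean of ilium and femur for the 8 genes, with bars of 1 SE from limma; the red ring marks Igfbp2, the gene with an adjusted p under 0.05. Right, the log2 difference of mandible minus maxilla (diamonds) and femur minus ilium (squares), 1 array each, with dotted lines at 2-fold; Igfbp3, Igfbp6 and Igf2 lie beyond the line for the mandible, and Igfbp2 beyond it for the femur.

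The jaw bones differed from each other mostly in 1 direction. Igf2, Igfbp3 and Igfbp6 were at least 2-fold higher in the mandible than in the maxilla, 3 of 8 genes against 8.32% of all genes, and 0 of 8 were 2-fold lower, against 13.5%. The median of mandible minus maxilla was 0.83 over the 8 genes and 0.07 over all genes. The mandible held the highest level of the 4 bones for 6 of 8 genes and for 27.0% of all genes. The exceptions were Igf1r and Igfbp2, which were highest in the maxilla. Igfbp5 was counted on a mandible minus maxilla gap of 0.07, under the scanner error of 0.204 on a difference. Its second probe had the maxilla higher, with a gap of -0.68. These counts come from 1 array a bone and have no replicate check. Scaled on each array's median instead, mandible minus maxilla became larger for Igf1 (1.20), which then passed 2-fold, and changed sign for Igf1r (-0.16 to 0.10).

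The ilium and the femur were close for 7 of the 8 genes. Igfbp2 was at least 2-fold lower in the femur, 1 of 8 genes against 2.27% of all genes, and 0 of 8 were 2-fold higher, against 1.57%. With normexp background correction this difference of Igfbp2 was -0.94, under 2-fold. For the other genes, femur minus ilium ranged from -0.25 for Igfbp6 to 0.32 for Igf1r.

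Several marker lists moved with these values, and their part in them was not tested. Of 8 enamel and dentin genes, 7 were at least 2-fold higher in both jaw bones and 4 passed limma's test. Over all genes, those shares were 9.34% and 4.51%. Signals of Enam, Mmp20, Amtn and Odam were well above background in the maxilla and mandible only. Ambn, Amelx and Klk4 were well above background in every bone, and Dspp in every bone but the femur. Of 10 stratified epithelium genes, 8 were tested and 7 passed upward, against 4.51% of all genes. The 10 genes summed to 94.5 in the maxilla and 131 in the mandible, against 4.60 in the ilium and 4.79 in the femur. Dsc3 was not well above background on any array. The 10 genes of fibroblast, ligament and tendon summed to 447 and 428 in the maxilla and mandible and to 212 and 160 in the ilium and femur, and Postn, the matrix protein of periosteum and ligament, was the gene of that list that passed (1.88 ± 0.33, limma adjusted p = 0.0486). Of the 12 osteoblast and osteocyte genes, 0 passed limma's test. At an unadjusted p under 0.05, 4 were higher in the jaw and 0 lower, against 15.7% and 18.7% of all genes. Both jaw bones lay above both others for 9 of the 12 (31.9% of all genes), and the median difference was 0.82. The mandible was the highest bone for 10 of them (27.0% of all genes). The secretory genes of nose and salivary gland summed to 536 in the maxilla against 0.537 in the mandible. Skeletal muscle genes had their lowest sum, 145, in the maxilla. Their other sums were 846 (mandible), 968 (ilium) and 956 (femur), so by sum the mandible too lay below both trunk and limb bones. The median level of these genes was instead highest in the mandible, at 6.67, against 6.20 in the ilium, 6.26 in the femur and 4.21 in the maxilla. By limma, 10 of 10 erythroid genes were called lower in the jaw, as were 6 of 10 B lymphocyte and 6 of 10 neutrophil genes. Of all genes, 7.25% were called lower. Separation downward by at least 2-fold was met by 10, 8 and 7 genes of these lists, against 9.82% of all genes. Of 8 hepatocyte genes, 7 had a value, they summed to at most 0.181 in any bone, and Ttr and Apob were not well above background on any array.

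**Figure D3:**
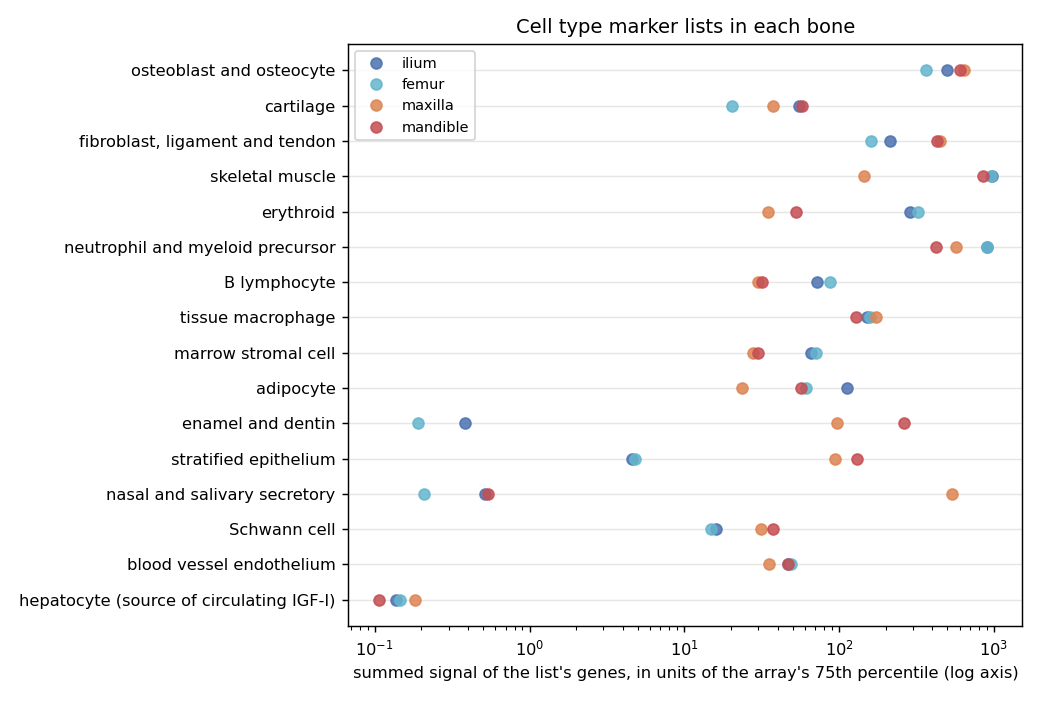
Summed signal of each cell type marker list (log axis, in units of the array's 75th percentile) in the 4 bones, 1 point for each bone. Enamel and dentin and stratified epithelium lie far to the right in both jaw bones, the nasal and salivary list in the maxilla, and the erythroid list is lower in both jaw bones.

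The rest of the IGF axis was read from 4 lists of 48 genes, of which 42 were tested, 5 were not above background on enough arrays and 1 (Irs2) is not analysed here. By limma, 0 of the 42 passed in either direction, while 8 had an unadjusted p under 0.05 with a higher and 3 with a lower level in the jaw. These 11 of 42 genes stand against 34.4% of all genes, so in both directions together the axis held no larger share of such genes than the array. By direction, the 8 higher of 42 stand against 15.7% of all genes and the 3 lower against 18.7%. The median difference over the 42 was 0.44, against -0.03 over all genes. By the rule of size, 2 of the 42 were at least 2-fold higher in both jaw bones, Socs2 and Plagl1, and 0 were lower, against 9.34% and 9.82% of all genes.

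Among receptors and adaptors, 0 of 16 genes tested passed limma's test, 1 had an unadjusted p under 0.05, against 34.4% of all genes, and the median difference was 0.10. That gene was Igf2r, the receptor that clears IGF-II, which read 1.90 in the ilium, 1.70 in the femur, against 3.16 in the maxilla and 2.75 in the mandible. Its difference was 1.16 ± 0.25 (2.23-fold, limma adjusted p = 0.0667), and the classes did not overlap. Irs1, the adaptor that docks to the active receptor, gave 1.20 ± 0.61, with the mandible at 3.57 above the other 3 bones at 1.35 to 2.09, and 0.46 without the mandible. Grb10, an adaptor that dampens receptor signalling, gave 1.06 ± 0.50, and 0.53 without the mandible. The insulin gene Ins1 gave -0.56, but it was not well above background in the mandible and changed sign under 1 of 8 other settings (0.13) and without the mandible (0.65).

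Of the binding and processing genes, 8 of 11 were tested, 0 passed limma's test, and the unadjusted p was under 0.05 for 2 with a higher and 1 with a lower level in the jaw, 3 of 8 against 34.4% of all genes. The median difference was 0.56. Pappa, the protease that cleaves IGFBP4, was the lower one, at 0.42 in the ilium, 0.51 in the femur, against -0.26 in the maxilla and -0.19 in the mandible (difference -0.70 ± 0.19, limma adjusted p = 0.098). The stanniocalcins Stc1 and Stc2, which inhibit PAPP-A, gave differences of 1.51 ± 0.43 and 2.56 ± 0.92. Stc2 read -2.50, -3.88, -1.66 and 0.39 in ilium, femur, maxilla and mandible, so the mandible was the highest here too, and without it the difference was 1.53. Htra1, a secreted serine protease with an IGFBP-like domain, gave 1.33 ± 0.30 (limma adjusted p = 0.0697), and Igfbp7, a low-affinity relative of the binding proteins, gave 0.49 ± 0.22. Igfbpl1, another relative, was well above background in the mandible by both of its probes, at -2.63 and -5.45, and not well above background in the other 3 bones. Igfbp1, the neighbour of Igfbp3, was well above background in the femur only.

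**Figure D4:**
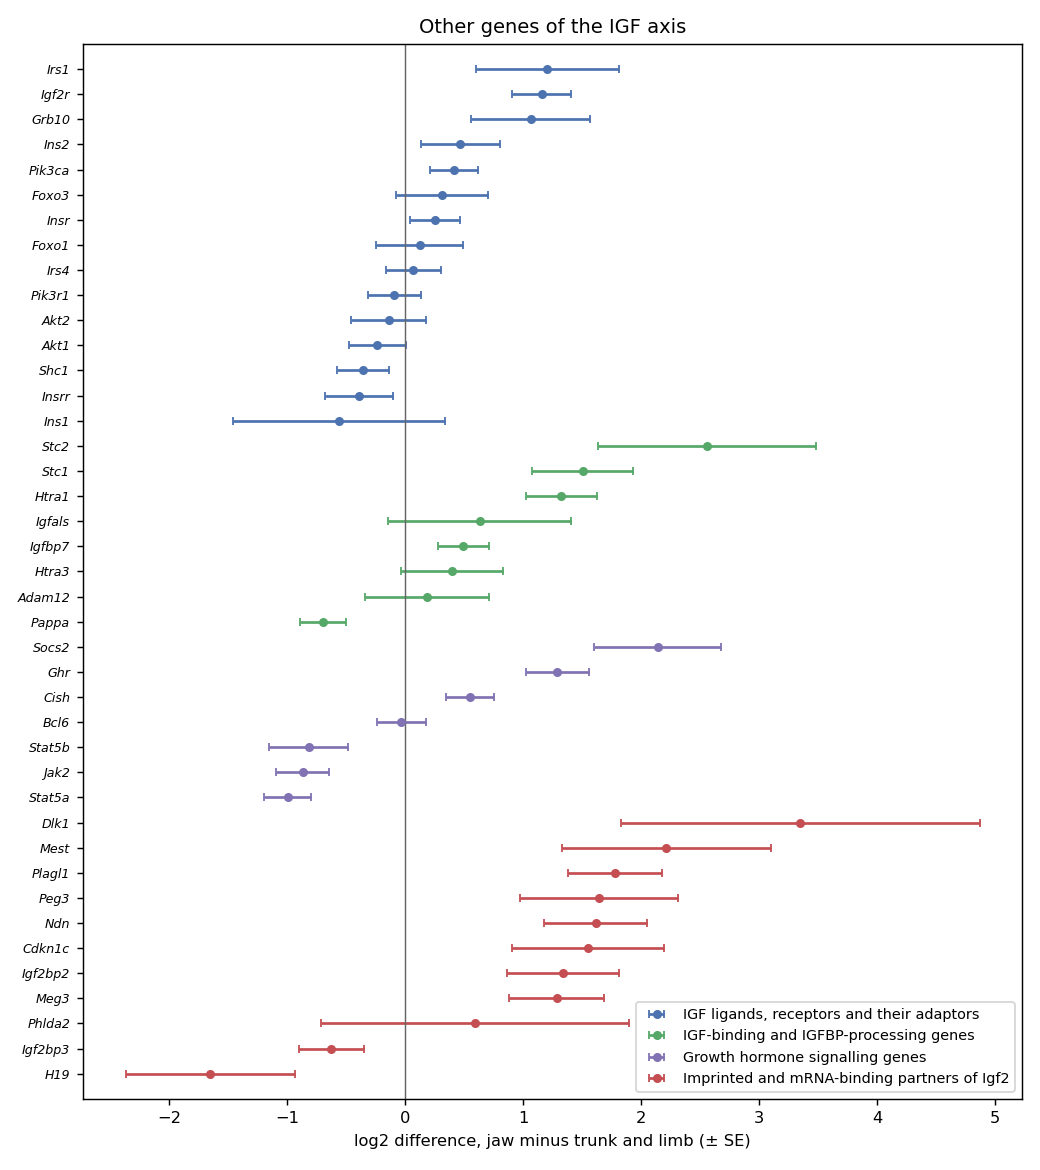
Log2 difference, jaw minus trunk and limb, for 41 of the 42 other genes of the IGF axis tested, in 4 lists (colours), with bars of 1 SE from limma. None has an adjusted p under 0.05; the imprinted partners of Igf2 lie mostly to the right of 0, with H19 at the far left.

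Growth hormone signalling genes split, with 0 of 7 past limma's test, 2 higher and 2 lower at an unadjusted p under 0.05 against 15.7% and 18.7% of all genes, and a median of -0.03. Ghr, the receptor, read 1.59 in the ilium, 1.28 in the femur, against 2.53 in the maxilla and 2.93 in the mandible, a difference of 1.29 ± 0.26 (limma adjusted p = 0.0613), and its 5 probes gave 0.92 to 1.63. Socs2, a feedback inhibitor of that receptor, read 0.39, -0.24, 2.83 and 1.61 in the same order, a difference of 2.14 ± 0.54 (4.41-fold, limma adjusted p = 0.0837). The genes of the kinase and transcription factors that act downstream of the receptor lay lower in both jaw bones, with differences of -0.87 for Jak2, -0.996 for Stat5a and -0.82 for Stat5b. The erythroid, neutrophil and B lymphocyte lists were lower in the same bones, and their part in these values was not tested.

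The partners of Igf2 comprised imprinted genes and genes for proteins that bind its mRNA. Of 13, 11 were tested, and Igf2bp1 and Peg10 were not well above background in any bone. By limma 0 passed, 3 had an unadjusted p under 0.05 with a higher level in the jaw and 0 with a lower one, against 15.7% and 18.7% of all genes, and the median difference was 1.55. The mandible was the highest bone for 7 of the 11, against 27.0% of all genes. Dlk1, a membrane-bound inhibitor of adipocyte formation, read -2.54 in the ilium, -3.80 in the femur, against -1.79 in the maxilla and 2.15 in the mandible, with a difference of 3.35 ± 1.52 (limma adjusted p = 0.217), which was 1.38 without the mandible and 5.32 without the maxilla. Plagl1, an imprinted zinc finger factor, gave 1.78 ± 0.40 (limma adjusted p = 0.0695), and both of its probes gave that size, at 1.73 and 1.78. The imprinted genes Mest, Peg3, Ndn and Meg3 gave 2.21 ± 0.89, 1.65 ± 0.67, 1.61 ± 0.44 and 1.28 ± 0.40. Leaving out 1 array at a time moved Mest between 1.05 and 3.37, Peg3 between 0.88 and 2.42, Ndn between 1.14 and 2.09 and Meg3 between 0.81 and 1.76, each lowest without the mandible. H19, the non-coding RNA that shares its imprinted locus with Igf2, had the opposite sign to Igf2. Its level was 2.55 in the ilium, 2.54 in the femur, against -0.05 in the maxilla and 1.85 in the mandible, a difference of -1.65 ± 0.72 (limma adjusted p = 0.204), and a second probe gave -1.64. Without the maxilla it was -0.70, and without the mandible -2.60. The maxilla was the low bone for H19, whereas the mandible was the high bone for Igf2.

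The genes with the most similar pattern were found by the root mean square difference of the 4 values after each gene's own mean was taken off, among 15730 named genes tested. For Igfbp2, 0 genes lay within 0.2, and Lgi2 was the nearest one that was well above background on all 4 arrays, at a distance of 0.27 and with a jaw minus trunk and limb difference of 4.45. For Igf2, 26 genes lay within 0.2, and the nearest were Slc16a4 (0.0737), Dipk1c (0.0937) and Dzip1 (0.108). For Igfbp3, 4 genes lay within 0.2, the nearest being Slc12a1 (0.115), St8sia1 (0.173) and Kcnh1 (0.185). Flatter patterns had many neighbours: 461 genes lay within 0.2 of Igf1, with Jcad at 0.0114 and the collagen gene Col14a1 at 0.0311, 703 of Igfbp4, 688 of Igfbp5 and 1617 of Igf1r. Igfbp6 had 73, with Pacsin3 at 0.0269. Among the 8 genes themselves, Igf1 and Igfbp4 were the closest pair, at 0.112, and Igfbp6 was 0.237 from Igf1. Igf2 and Igfbp3 were 0.425 apart, and Igfbp2 lay at least 1.15 from every other member. With 4 arrays on 1 slide, these distances are a description of the arrays.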

How the data were processed

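RNA of the ilium, femur, maxilla and mandible was measured on 1 one-colour Agilent array each. The deposited scanner files hold spot intensity on a linear scale, background-subtracted and detrended per the file headers, and other flags per spot; the program was Agilent Feature Extraction, version 9.5.3.1 in the submitters' processing notes. The deposited series table holds log2 values that matched the log2 ratio of each array to the ilium minus a constant (femur 0.096, maxilla -0.0955, mandible 0.1222), within 0.01 for at least 99.9% of probes; how the constants were chosen is not given in the sources used here, and the column medians were 0, 0.0233, -0.218 and -0.133.

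Outlier spots were left out, spots of a probe averaged, log2 intensity set relative to the array's 75th percentile over 43379 spots that were not controls (1142, 1208, 809 and 1142 for ilium, femur, maxilla and mandible), and the brightest probe taken for a gene. Of 41174 probes, 41168 kept a value, 24375 were named by accession, 6301 by current symbol and 2426 by an older symbol in the RefSeq table (GRCm38.p6), and 8072 kept the name in the file. Genes that 2 or more of the 4 arrays measured well above background were tested with limma 3.58.1 in R 4.3.3 (lmFit, eBayes), after a check on simulated data. The fit had 2 residual and 1.757 prior degrees of freedom, and its smallest adjusted p was 0.0325. Differences between 2 bones have no test, and counts of them need the brighter bone well above background. Named genes are all 8 members, the 3 nearest genes of each, and, from each pathway list, genes called or separated by 2-fold, up to 6 by size, and those needed to explain a count. A gene of the receptor and adaptor list is counted but not reported here by name. Members, lists and rules were chosen with earlier results of these data known. Promoter windows come from RefSeq (GRCm38.p6), which held 12 starts for the 8 genes, and probe positions are in mm8, per the file headers. Alternatives were background correction, scale, normalization, the deposited table, the background filter, outlier spots, probe choice and leaving out each array.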

Additional observations from a re-analysis of the deposited data

How the results depend on the processing

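Direction was kept by all 8 genes, jaw against trunk and limb, under 10 other settings of background correction, scale, filter and probe choice, except Igf1r in the deposited series table (-0.0002). With 1 array left out, Igf1 ranged from -0.0424 to 0.9031 and Igfbp6 from -0.1975 to 1.3584, both reversed without the mandible. Counts called among the 8 genes were 1 as reported, 2 with normexp background correction, 2 with only genes well above background on all 4 arrays, 0 with no filter, and 0 to 7 with 1 array left out. All genes called numbered 2423 as reported, 1120 with no filter, 3987 probes when every probe was fitted (added after seeing the data) and 0 to 8204 with 1 array left out, where the lone array is assumed to vary like the other class. Genes separated by 2-fold numbered 3949, against 2648 with normexp and 3175 with the filter on all 4 arrays. With 1 array left out they numbered 4247 to 6848 (the latter without the mandible). Femur against ilium differences of 2-fold numbered 790, with normexp 233, and 458 with the filter on all 4 arrays. The cause of these shifts was not tested. The median of all genes, jaw minus trunk and limb, moved from -0.03 to -0.28 when scaled on each array's median or taken from the series table, and the share of calls that were higher in the jaw moved from 38.3% to 26.8% and 27.2%. With 1 array a bone, the number of arrays limits the precision.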
